A study of Mus musculus with 4 samples.

Results

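The class I odorant receptors described here are the 115 genes, of 23337 in the count files, whose symbols run from Olfr543 to Olfr692. They were chosen by symbol alone, although earlier results of these data were known. RNA-seq was performed on Tomato+ cells sorted from regenerated olfactory epithelium of 4 mice of mixed strain, 1 mouse per sample. All mice carried K5Cre, which drives recombination in horizontal basal cells (the resident stem cells of this epithelium), together with the R26Ai9 Tomato reporter and a conditional Lmnb1 allele. All had received 50 mg/kg methimazole, which destroys the epithelium, and had recovered for 4 weeks. The sorted cells were therefore stem cells and whatever they had produced during repair, including neurons and supporting cells. They were Lmnb1-/- in 2 mutant mice and Lmnb1+/- in 2 control mice, so the controls had lost 1 copy of the gene and kept 1 functional copy. Control 1 and mutant 1 form experimental group 1 and control 2 and mutant 2 form experimental group 2. The members of a group shared parents, age, sex, treatment, preparation and sequencing, and the series design states that the groups differed in parents, age, sex and treatment. The labels give both groups the same drug dose and recovery and do not say how the treatment differed. No age is given per sample in the labels.

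Odorant receptors are G protein-coupled receptors, and each mature olfactory sensory neuron expresses a single receptor allele out of a very large family. Class I receptors are the smaller branch of the family, related to fish receptors. In the mouse they lie together on chromosome 7, around the β-globin genes, and are used mostly by neurons of the dorsal zone of the epithelium. Several are known to detect carboxylic acids. The other branch, class II, is spread over most chromosomes and over all zones.

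The label was checked against the annotation. All 115 members lay on chromosome 7 of mm10 between positions 102476579 and 105369355, and 114 of them were annotated as protein coding. Olfr33 and Olfr243 lie in the same stretch but outside the number range, and were counted with the 978 other receptors. A further 7 class I receptors outside the number range (Olfr64 to Olfr69 and Olfr78), here called globin-side, were kept apart. The name is only a label, since β-globin genes lie inside the span of the members and Olfr78 overlaps the member Olfr560. Annotated exons of members covered 936 to 8565 bases, with a median of 2921. Of 115 members, 19 overlapped another annotated gene.

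Library totals ran from 14833396 counts in mutant 2 to 23704638 in control 1. Lmnb1 itself, of which exon 2 is removed, held 477 and 395 counts in control 1 and control 2 (20.1 and 18.5 CPM, the count scaled to each library's total) and 326 and 149 in mutant 1 and mutant 2 (14.7 and 10.04 CPM). Mutant 1 stood apart from the other libraries. Reads outside genes made up 39.4% of its uniquely aligned reads, against 22.1% to 24.9% in the others, and 1603 genes were at 0, against 5173 to 6053. Genes other than receptors at 0 in the 3 other libraries held a median of 1.80 counts per kilobase of exon there and 0 in each of the others. The summed CPM and share without Olfr613, the number of members detected and the tests are therefore also given after subtraction of this even background. Ratios of single members, their medians and single counts are given without subtraction. The cells were checked for Omp, the marker of mature olfactory neurons, at 9434 and 3207 CPM in control 1 and control 2 and 5580 and 907 CPM in mutant 1 and mutant 2. All 12 mature neuron markers were lower in the mutants by the test used below. In bulk samples, fewer cells of a type and less RNA per cell cannot be told apart.

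Class I reads were dominated by a single gene. Olfr613 held 4994 of 7918 member counts in control 1 and 1853 of 2736 in control 2. It held 11740 of 15532 in mutant 1 and 1102 of 1390 in mutant 2. These are 63.1%, 67.7%, 75.6% and 79.3% of the class I reads of control 1, control 2, mutant 1 and mutant 2. Averaged over the samples, Olfr613 reached 43.2 CPM per kilobase of exon, followed by Olfr672 at 6.53 and Olfr549 at 3.17 on the same scale. In the annotation Olfr613 (chr7:103548074-103555506, plus strand) has 2 starts. The shorter transcript begins at 103550368, inside the intron of the longer, and RefSeq gives this start.

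The sequence just upstream of that RefSeq start is shown because it sets Olfr613 apart from its neighbours. Both sequences below are from RefSeq promoter windows on GRCm38.p6, plus strand, and lie in introns of the longer transcripts. That of Olfr613 is chr7:103550118-103550367 and that of Olfr549 is chr7:102554036-102554219. Capitals mark bases in runs of 20 that also occur in transcripts of 5 or more other genes.
Olfr613: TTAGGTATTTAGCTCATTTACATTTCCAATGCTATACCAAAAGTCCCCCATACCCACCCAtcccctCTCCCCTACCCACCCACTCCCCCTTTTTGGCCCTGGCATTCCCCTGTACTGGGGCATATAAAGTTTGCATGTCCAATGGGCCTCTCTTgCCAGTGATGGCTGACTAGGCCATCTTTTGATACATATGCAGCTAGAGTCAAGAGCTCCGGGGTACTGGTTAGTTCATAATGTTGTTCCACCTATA
Olfr549: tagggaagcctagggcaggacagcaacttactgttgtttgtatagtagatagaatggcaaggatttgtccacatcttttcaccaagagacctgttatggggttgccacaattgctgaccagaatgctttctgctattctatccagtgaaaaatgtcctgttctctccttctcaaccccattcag
Of the 250 bases printed for Olfr613, 243 are in capitals, and none of the 184 bases of Olfr549 is. Over the whole 300-base window, 293 bases of Olfr613 were shared in this way. Windows were available for 99 members, 95 of them held no shared run, and the next largest value was 37 bases. Only 13 windows began within 100 bp of the GENCODE gene start, so most are not the start from which the longest transcript is annotated. Sharing within the exons, where the reads were counted, was smaller than in the window. Counted as runs, 230 of the 281 runs of 20 bases in the Olfr613 window occurred in 5 or more other genes. In Olfr613 transcripts the share of such runs was 7.54%, against a median of 0.489% over members. Of runs of 50 bases, the read length, 4.62% occurred in any other gene, against a median of 1.90%. Which start was used, and whether reads from such repeated sequence entered the Olfr613 counts, was not tested. Sums are therefore given with and without this gene.

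Summed over members, class I expression was 334 CPM in control 1 and 701 CPM in mutant 1. It was 128 CPM in control 2 and 93.7 CPM in mutant 2. The mutant was thus higher in experimental group 1 (log2 ratio 1.07) and lower in experimental group 2 (log2 ratio -0.45), and the sum of every group 1 sample exceeded that of every group 2 sample. Without Olfr613 the sums were 123 and 171 CPM in control 1 and mutant 1, and 41.3 and 19.4 CPM in control 2 and mutant 2. Their log2 ratios were 0.47 and -1.09, again opposite in sign. After background subtraction mutant 1 stood at 146 CPM and the log2 ratio of group 1 was 0.25. The other receptors summed to 1923 and 1404 CPM in control 1 and mutant 1 and to 1593 and 603 CPM in control 2 and mutant 2, lower in the mutant in both groups (log2 ratios -0.45 and -1.40). With 1 mutant and 1 control per group, these ratios have no replicate check.

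**Figure D1:**
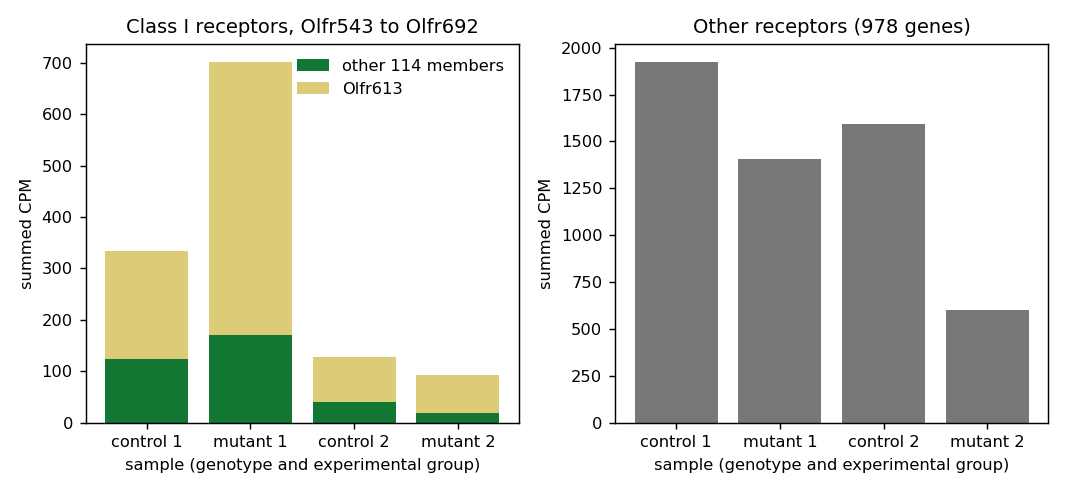
Summed CPM (vertical axis) of the class I receptors in each sample, divided into Olfr613 and the other 114 members (left), and of the 978 other receptors (right). Each bar is 1 mouse. Olfr613 forms 63.1% to 79.3% of the class I bars, and the class I sum is highest in mutant 1 (701 CPM) and lowest in mutant 2 (93.7 CPM).

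As a share of receptor counts, class I receptors were higher in the mutant of each experimental group. They formed 14.8% of receptor counts in control 1 (95% Wilson interval 14.5% to 15.1%) and 33.2% in mutant 1 (32.8% to 33.6%). In control 2 they formed 7.42% (7.16% to 7.70%) and in mutant 2 13.4% (12.8% to 14.1%). With Olfr613 left out of members and receptors alike, the shares were 6.02% and 10.8% in control 1 and mutant 1, and 2.52% and 3.11% in control 2 and mutant 2. Background subtraction gave 10.9% in mutant 1. Without Olfr613 the gap in group 2 was small, with intervals of 2.36% to 2.69% and 2.77% to 3.48%. Intervals cover counting error only, and the spread between mice is not in them.

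More members were detected in group 1 than in group 2. At 3 counts or more, 85 and 103 of 115 members were detected in control 1 and mutant 1, and 68 and 32 in control 2 and mutant 2. Thinned to equal depth, the numbers were 75 and 102 in group 1 and 61 and 32 in group 2. Background subtraction lowered mutant 1 to 90. The median member held 14 and 20 counts in control 1 and mutant 1 and 4 and 0 counts in control 2 and mutant 2. In all, 22 members were detected in every sample, 4 in none (Olfr574, Olfr583, Olfr589 and Olfr645), and 10 in mutant 1 only. Both group 1 samples detected 23 members that neither group 2 sample did, and the reverse held for 0 members. The same was true of 1.8% of all genes and 49 of 978 other receptors, and the reverse of 0.219% of all genes and 10 of the other receptors. No member was at 0 in all 4 samples. Of the 978 other receptors, 732 and 870 were detected in control 1 and mutant 1 and 785 and 604 in control 2 and mutant 2.

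**Figure D2:**
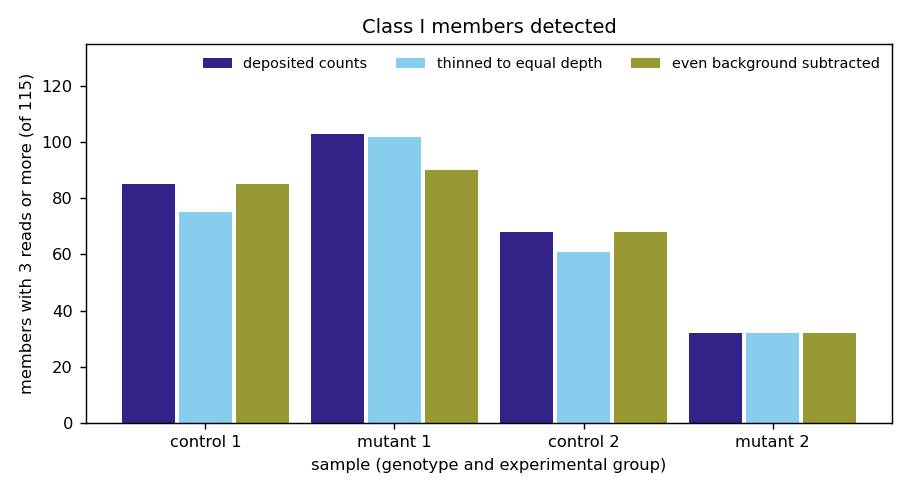
Number of the 115 class I members with 3 reads or more (vertical axis) in each sample, from deposited counts, from counts thinned to the smallest library, and after subtraction of the even background of mutant 1. Mutant 2, the smallest library with a background of 0, is left unchanged by both treatments at 32 members. Mutant 1 fell from 103 to 90 after subtraction.

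The main question of the study is how loss of lamin B1 changed gene expression, and for class I receptors no member passed the genotype test. The test was edgeR's likelihood-ratio test with experimental group in the model, over 15438 genes with CPM above 1 in at least 2 samples. Of 115 members 35 passed this filter, and 22 of these did so through the group 1 samples only. At an adjusted p under 0.05, 0 were lower and 0 higher in mutants, where 4.3% of all genes tested were lower and 1.28% higher. edgeR's quasi-likelihood test also called 0 of the 35. DESeq2 gave an adjusted p to 1 of them only, Olfr613 (0.855), so its count of 0 calls says nothing about the other 34. At an unadjusted p under 0.05 there was 1 member, against 15.9% of all genes, with 1 by the quasi-likelihood test and 0 by DESeq2. This was Olfr658, with 122 and 27 counts in control 1 and control 2 and 36 and 4 in mutant 1 and mutant 2. The mutant was the lower of each pair, although mutant 1 exceeded control 2. The log2 fold change was -1.95 (SE 0.85, adjusted p = 0.205). Among the other receptors, 34 of 453 tested were lower and 0 higher. The difference between the families was not tested.

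The precision of these fold changes was low. Their median SE on the log2 scale was 1.13 over the 35 members, 0.94 over other receptors and 0.26 over all genes tested. A change of the size seen across other receptors (median log2 fold change -0.99) was within the error of a typical member, so a change of that size was not detectable for most members at this depth and number of mice. The median log2 fold change of the 35 was -0.42, and 26 of them were negative, where the median of all genes tested was -0.01. The best measured member was Olfr613, with a log2 fold change of 0.50 (SE 0.31, adjusted p = 0.480). Olfr672 held 287 and 69 counts in control 1 and control 2 and 491 and 21 in mutant 1 and mutant 2, and its log2 fold change was -0.11 (SE 0.50).

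**Figure D3:**
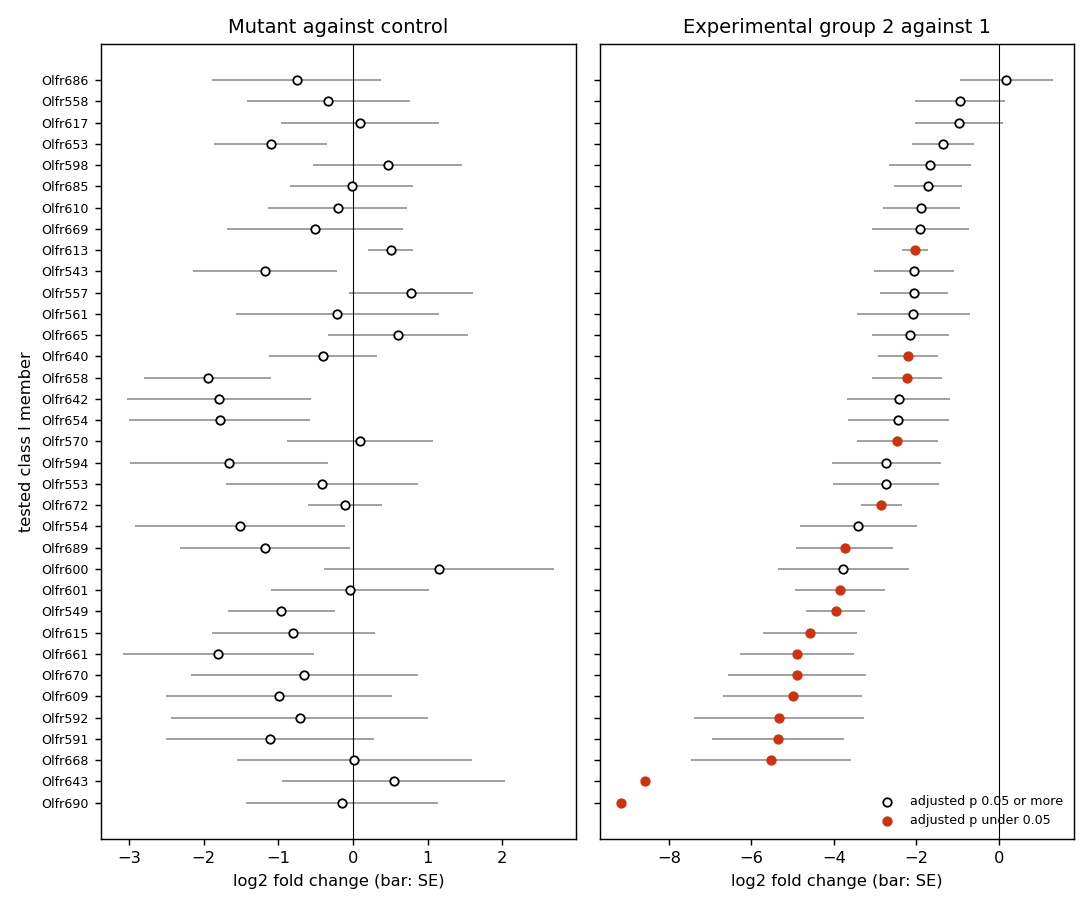
Log2 fold changes (horizontal axis, bars show the SE) of the 35 tested class I members, ordered by the change between experimental groups, for mutant against control (left) and group 2 against group 1 (right). Filled points have an adjusted p under 0.05: 0 on the left and 17 on the right, of which 12 passed the filter through group 1 only and could differ in 1 direction alone. Olfr643 and Olfr690 have 0 counts in group 2, so their points on the right depend on the prior count and their SE, which carries no information, is not drawn.

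Ratios within the experimental groups were taken as the mutant minus the control in log2 CPM, after adding a prior count of 2. They were examined for the 58 members that averaged 10 counts or more over the 4 samples. This limit uses no labels, but a member can pass it through group 1 alone, as Olfr552 did with 0 counts in group 2. In both groups the mutant was lower for 20 members (34.5%), where 27.0% of all genes at this level were, and higher for 1 (Olfr606), where 35.1% of all genes were. Olfr606 held 16 and 4 counts in control 1 and control 2 and 21 and 7 in mutant 1 and mutant 2. For 28 members the mutant was higher in group 1 and lower in group 2, and 5 went the other way. The shares of all genes at this level were 21.2% and 16.3%, and among other receptors 195 and 55 of 654 did so. The median ratio was 0.29 in group 1 and -1.11 in group 2, where other receptors had -0.36 and -1.20. The even background of mutant 1 was not subtracted here and can raise the ratios of group 1. Across members the ratios of group 1 and group 2 showed no clear relation (Pearson r = -0.12, Spearman rho = -0.10, 58 genes that share their libraries). Both mutants lay below both controls for 2 of 58 members, Olfr630 and Olfr686, against 10.4% of all genes and 226 of 654 other receptors. Both mutants lay above both controls for 0 members, against 15.6% of all genes.

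The members with the lowest mean ratio were Olfr597, Olfr658, Olfr683, Olfr623 and Olfr630. Olfr597 held 41 and 4 counts in control 1 and control 2 and 6 and 0 in mutant 1 and mutant 2. Olfr683 held 71 and 5 in the controls and 15 and 0 in the mutants in the same order, and Olfr623 held 47 and 9 against 21 and 0. Each was lower in the mutant of each pair, while mutant 1 held more than control 2. Olfr630 held 20 and 21 counts in the controls and 14 and 1 in the mutants. Those with the highest mean ratio were Olfr599, Olfr557, Olfr600, Olfr606 and Olfr665, and apart from Olfr606 each was higher in the mutant of 1 group only. Olfr599 held 2 and 11 counts in control 1 and control 2 and 38 and 3 in mutant 1 and mutant 2. Olfr557, with 96 and 9 in the controls and 79 and 26 in the mutants, was higher in mutant 2 only, as was Olfr665 with 79 and 7 against 58 and 18. Olfr600 held 34 and 0 counts in the controls and 23 and 4 in the mutants. These values rest on few reads in group 2, and no adjusted p of the tested ones among them was under 0.205.

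**Figure D4:**
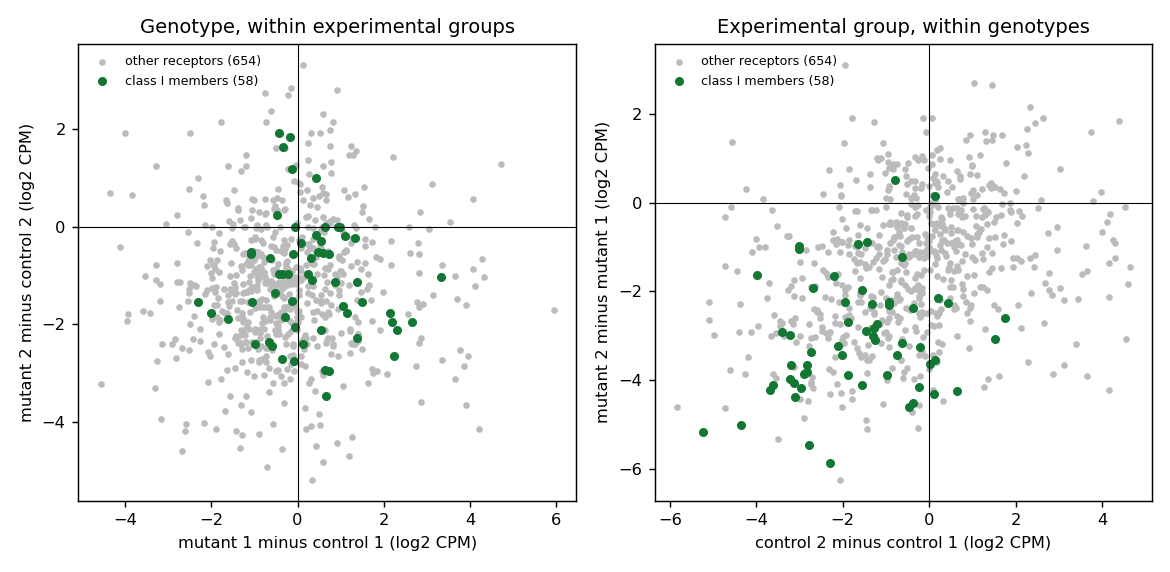
Differences in log2 CPM for the 58 class I members (green) and 654 other receptors (grey) that averaged 10 counts or more. Left, mutant minus control in group 1 (horizontal) and group 2 (vertical). Right, group 2 minus group 1 in controls (horizontal) and mutants (vertical). On the left members spread on both sides of 0 in group 1 with a median of 0.29, and on the right 48 of 58 lie below 0 on both axes.

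The largest differences among class I receptors were between the experimental groups, a comparison chosen after the values were seen. In CPM, both group 1 samples exceeded both group 2 samples for 48 of 58 members (82.8%), against 32.5% of all genes at this level and 239 of 654 other receptors. Among the receptors of chromosome 2 and chromosome 9, the numbers were 68 of 194 and 39 of 75. A gene could reach this level through group 1 alone and then had to differ in this direction. Part of each of these numbers can therefore come from the limit itself. Of the remaining 10 members, only Olfr686 was higher in group 2 in both genotypes. It held 28 and 28 counts in control 1 and control 2 and 16 and 12 in mutant 1 and mutant 2. The median difference of group 2 from group 1 was -1.56 in controls and -3.19 in mutants on the log2 CPM scale, where other receptors had -0.34 and -1.20. By the series design the groups differed in parents, age, sex and treatment, and preparation and sequencing were shared only within a group, so these cannot be told apart.

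In the same model, over all 115 members with no filter on low counts, 17 (14.8%) were lower in group 2 and 0 higher, against 7.39% of all genes lower and 12.6% higher. With the filter 17 of 35 were lower and 0 higher, against 14.0% of all genes lower and 17.7% higher, but 22 of the 35, and 12 of the 17, passed it through group 1 alone and had to differ in this direction. The calls depended on single libraries. Without control 1, mutant 1 or mutant 2 a smaller share of members was called, and also a smaller share of all genes. Only 12 members could be tested without control 1 and 13 without mutant 1. These fits leave 1 sample in a group and omit genotype, so their calls are not counted. The median log2 fold change was -1.94, -1.95 and -2.04 without control 1, mutant 1 and mutant 2, and -4.00 without control 2. It was -2.46 over the 35 in the main fit. The quasi-likelihood test called 13, all among the 17. The 17 were Olfr549, Olfr570, Olfr591, Olfr592, Olfr601, Olfr609, Olfr613, Olfr615, Olfr640, Olfr643, Olfr658, Olfr661, Olfr668, Olfr670, Olfr672, Olfr689 and Olfr690. Thinning to equal depth called 17 and background subtraction 15.

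Olfr549 held 205 and 299 counts in control 1 and mutant 1 and 36 and 2 counts in control 2 and mutant 2. Both group 1 samples were far above both group 2 samples, and the log2 fold change of group 2 was -3.96 (SE 0.72, adjusted p under 0.05 by the likelihood-ratio test). Olfr672 gave -2.85 (SE 0.50) and Olfr613 -2.03 (SE 0.31), and Olfr613 was lower in group 2 in each genotype. Olfr640 held 104 and 124 counts in control 1 and mutant 1 and 33 and 10 in control 2 and mutant 2 (log2 fold change -2.20, SE 0.73, adjusted p = 0.016). Olfr615 held 67 and 93 in group 1 and 7 and 0 in group 2, for control and mutant in that order (-4.57, SE 1.14), and it is 1 of the 12 that passed the filter through group 1 alone. Of the highly expressed members, Olfr653 held 96 and 86 in group 1 and 66 and 10 in group 2, and Olfr685 held 54 and 147 in group 1 and 42 and 9 in group 2. Control 2 was nearer to control 1 than mutant 2 was in both, and neither passed the test (adjusted p = 0.193 and 0.147).

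Some members with reads in both group 1 samples had none in group 2. These were Olfr552, Olfr572, Olfr586, Olfr632, Olfr643 and Olfr690, 6 members (5.22%) with 10 counts or more in both group 1 samples and 0 in both group 2 samples, against 0.351% of all genes and 13 of 978 other receptors. The reverse held for 0 members, against 0.00857% of all genes. Olfr690 (chr7:105328225-105334104, minus strand) held 84 counts in control 1 and 75 in mutant 1 and 0 in control 2 and mutant 2. Against a floor of 3 counts over both group 2 libraries, this is at least 41.9-fold higher in group 1. Olfr643 held 45 and 67 counts in control 1 and mutant 1 and 0 in group 2, at least 29.5-fold higher, but it overlaps other receptor genes, Olfr640 among them, and 45.2% of its 50-base runs occur in another gene. Olfr552 held 14 and 28 counts in group 1. Olfr572 held 18 and 34, Olfr586 18 and 12, and Olfr632 11 and 28. Background was not subtracted here, and in mutant 1 it was 1.80 counts per kilobase of exon. Olfr586 has 6183 bases of exon, so its 12 counts in mutant 1 are near that background.

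In the panel of 8 members near the ends of the cluster, 3 passed the filter, Olfr543, Olfr558 and Olfr690. Olfr543, the first gene of the cluster, held 69 and 52 counts in control 1 and mutant 1 and 26 and 4 in control 2 and mutant 2. Olfr544, known as a receptor for azelaic acid, held 14 and 14 counts in control 1 and control 2 and 23 and 0 in mutant 1 and mutant 2. Its neighbour Olfr545 held 10 counts in mutant 1 and 0 elsewhere. Olfr558 held 25 and 31 in the controls and 51 and 6 in the mutants. Olfr691 held 22 and 3 against 32 and 1, and Olfr692 held 7 and 5 against 36 and 0. Of the 3 tested for genotype, 0 passed.

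Members with reads lay along the whole cluster. In the first, middle and last stretches of equal length lay 47, 34 and 34 members, of which 24, 15 and 19 averaged 10 counts or more. Of these, 18, 13 and 17 were lower in group 2 in both genotypes, where 41.6% of all genes at this level were. Without background subtraction, the median log2 ratio of mutant to control in group 1 was 0.59, 0.32 and -0.06 from the first to the last stretch. In group 2 it lay between -1.37 and -0.97 in all stretches. The count files held 16 genes of the same span, matched by symbol, that are not receptors. Of these, 6 were tested and 0 passed for genotype. Among them only Trim12c differed between experimental groups, and it was higher in group 2 (log2 fold change 0.93, adjusted p = 0.006). None of these 6 was called lower in group 2.

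**Figure D5:**
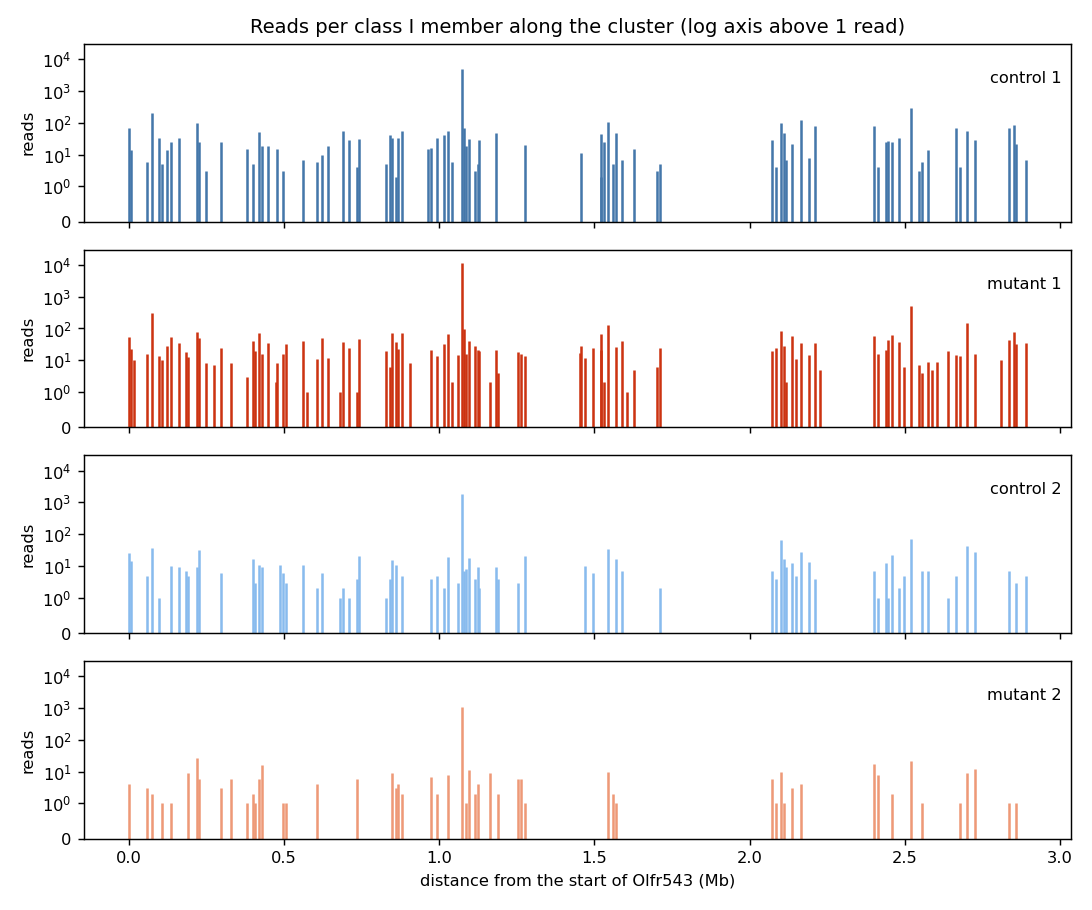
Deposited reads of each class I member (vertical axis, logarithmic above 1 read) by distance of its start from that of Olfr543 (horizontal axis, Mb), 1 panel per sample. Olfr613 is the tallest line in every panel, and lines are fewest in mutant 2, where 32 members have 3 reads or more.

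The globin-side class I receptors were low. Their 7 genes summed to 3.92 and 3.04 CPM in control 1 and control 2 and 7.31 and 2.49 CPM in mutant 1 and mutant 2. Only Olfr78, known from oxygen-sensing cells outside the nose, could be tested. It held 32 and 34 counts in the controls and 66 and 13 in the mutants, with a genotype log2 fold change of 0.12 (SE 0.94, adjusted p = 0.986). Olfr67 ranged from 1 count in mutant 2 to 40 in mutant 1, Olfr66 from 0 in control 2 to 29 in control 1, and Olfr65 from 0 in control 1 to 15 in mutant 2. Olfr64 held 0 to 17 counts, Olfr68 0 to 10 and Olfr69 4 to 17.

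Of 8 genes of zones and axon sorting, 2 were lower in group 2 and 0 higher, against 14.0% and 17.7% of all genes. Nqo1, an enzyme of the dorsal zone, stood at 500 and 600 CPM in control 1 and mutant 1 and at 184 and 164 CPM in control 2 and mutant 2. It was lower in group 2 (log2 fold change -1.63, SE 0.24) and did not differ detectably by genotype (-0.01, SE 0.24). Acsm4, a second dorsal gene, was lower in group 2 by the same test (-0.56, adjusted p = 0.022). Ncam2, an adhesion molecule of the complementary ventral zone, gave 0.28 (SE 0.19, adjusted p = 0.291) between groups and was lower in mutants (-0.89, SE 0.19). Robo2 and Sema3f, guidance genes of the same list, gave -0.20 and -0.30 between groups and did not pass (adjusted p = 0.411 and 0.184), nor did Nrp1, Nrp2 and Plxna1. Trace amine-associated receptors, another small receptor family used largely by dorsal neurons, were lower in group 2 for 4 of 5 tested (median log2 fold change -2.31) and passed for genotype in 0 of 5. Of these 4, Taar4 and Taar5 passed the filter through the group 1 samples only and so had to differ in this direction. Of the 12 mature neuron markers 11 were lower in group 2, and their summed CPM was 19822 and 11443 in control 1 and mutant 1 and 8641 and 2571 in control 2 and mutant 2. All 4 sustentacular markers measured were higher in group 2. The multiply aligned share of alignments, from the tally lines, also separated the groups, at 68.3% and 62.7% in group 1 and 26.3% and 25.9% in group 2. The part of each in the class I differences was not tested.

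Of 16 genes that act in receptor choice and trafficking, 7 were lower in mutants and 0 higher by the same test. The shares of all genes tested were 4.3% and 1.28%. Adcy3, Rtp1 and Rtp2 are also among the 12 mature neuron markers, all of which were lower in mutants. Bcl11b, a transcription factor that biases neurons away from class I choice, held 1982 and 1957 counts in control 1 and control 2 and 1311 and 1048 in mutant 1 and mutant 2. Both mutants lay below both controls (log2 fold change -0.49, SE 0.16, adjusted p = 0.045). Rtp1 and Rtp2, which carry receptors to the cell surface, were lower by 1.10 and 1.08 on this scale, and Adcy3, the cyclase of the odour response, by 1.29. Ebf4 (-0.89), Ddit3 (-0.67) and Eif2ak3 (-0.59) completed the list. Lhx2 (-0.28) and Ldb1 (0.16), which act at receptor enhancers, did not pass (adjusted p = 0.553 and 0.777). The family as a whole was also ambiguous for some members through sequence identity. In 19 of 115 members more than 20% of 50-base runs occurred in another gene, led by Olfr688 (84.2%), Olfr687 (80.5%) and Olfr603 (76.0%), and their counts are uncertain.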

How the data were processed

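RNA-seq libraries were made from ribosomal RNA-depleted RNA of sorted Tomato+ cells. Deposited are whole-number counts of reads for each gene, which the authors obtained with HTSeq in intersection-nonempty mode from single-end reads aligned to mm10 with TopHat 2.0.7 after removal of ribosomal reads with Bowtie2 2.0.6. The HTSeq version, annotation and strand setting are not given in the sources used here, so reads of a gene and its antisense or overlapping partner cannot be told apart. Reads with several alignments are set aside by HTSeq, which lowers counts of near-identical receptors. The 5 tally lines of unassigned alignments entered neither library sizes nor tests here, whereas the study's code kept them as genes, so library sizes and the genes passing the filter differ from the study's.

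Following the model, filter and test of the study's methods, genes with CPM above 1 in at least 2 samples were fitted in edgeR 4.0.16 (R 4.3.3) with TMM factors, genotype and experimental group, and coefficients were tested by the likelihood-ratio test with Benjamini-Hochberg adjustment over all genes (threshold 0.05). SEs are Wald errors. The experimental group acts as the replicate block. Its pairing comes from the series design (shared parents, age, sex, treatment, preparation and sequencing), and control 1 and mutant 1 deviated from their genotype means together (correlation 0.52 over 15438 genes). CPM is a count scaled to the total of gene counts. Library pairs differed by far more than sampling noise (chi-square per degree of freedom 47.0 to 278). With 2 mice per genotype no permutation test could reach 0.05. At these totals, 3 counts correspond to 0.127 to 0.202 CPM. Intervals and floors cover counting error only.

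Coordinates and exon lengths are from GENCODE vM21 (22879 of 23337 symbols matched). Runs of 50 and 20 bases were compared, on both strands, among GENCODE transcripts, and promoter windows (250 bases before to 50 after a start) are from RefSeq, GRCm38.p6. Members and gene lists were chosen with earlier results of these data known. Named members were the 10 highest in CPM, the 5 lowest and 5 highest in mean ratio, a panel of 8, and the globin-side genes, and others were named after their values were seen. Alternatives were the quasi-likelihood test, DESeq2 1.42.0, no replicate block, RLE factors, other filters, thinning to 14833396 counts (seed 11), background subtraction, another prior count (0.5), other detection minima and leaving out each sample.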

Additional observations from a re-analysis of the deposited data

Results flagged for a closer look

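Mutant and control differed in opposite directions in the experimental groups for the summed CPM of class I receptors and for several named members. These differences between groups were not tested, since each group holds 1 mutant and 1 control. Values are log2 ratios of mutant to control without background subtraction. For the sum of members the ratio was 1.07 in group 1 and -0.45 in group 2, and without Olfr613 it was 0.47 and -1.09. The mutant was higher in group 1 and lower in group 2 for 11 named members. In group 1 and group 2 the ratios were 0.72 and -2.95 for Olfr544, 0.64 and -2.94 for Olfr549, 1.06 and -1.62 for Olfr558, 3.32 and -1.03 for Olfr599, 1.33 and -0.22 for Olfr613, 0.56 and -2.12 for Olfr615, 0.34 and -1.09 for Olfr640, 0.87 and -1.14 for Olfr672, 1.503 and -1.55 for Olfr685, 0.59 and -0.53 for Olfr691 and 2.13 and -1.77 for Olfr692. The mutant was lower in group 1 and higher in group 2 for 3, with ratios of -0.18 and 1.84 for Olfr557, -0.43 and 1.91 for Olfr600 and -0.34 and 1.63 for Olfr665. 

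In data outside the gene counts, reads assigned to no gene made up 39.4% of the uniquely aligned reads of mutant 1, above both controls (23.8% and 24.9%) and mutant 2 (22.1%). Without background subtraction, 10 members were detected in mutant 1 only.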

How the results depend on the processing

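Of the 13 alternatives to the genotype test, only those that kept every sample were read for calls. Apart from DESeq2 they gave an adjusted p to 2 to 115 class I members, and none passed (smallest adjusted p 0.185, likelihood-ratio test). Fits that leave out a sample hold 1 sample of a genotype and omit the replicate block, so their calls are not counted. Few members could be tested with CPM above 1 in all 4 samples (2), without control 1 (12) and without mutant 1 (13). DESeq2 gave an adjusted p to Olfr613 only. Without the replicate block the model called 0 members lower and 0 higher, and the median of their log2 fold changes was 0.01 in place of -0.42. In that fit the smallest adjusted p of a member was 0.99997 by the likelihood-ratio test, so its 0 calls carry little weight. Of 162 alternative values of the 14 named members tested, 34 changed sign, 22 of them on leaving out a sample and 8 without the replicate block. Fits that leave out a sample lack this block too, so the difference between experimental groups can enter their fold changes. The summed ratio in group 2 turned from -0.45 to 0.85 when taken as a share of receptor counts, which fell more than class I counts. In experimental group 2 against group 1, 17 members were lower, and leaving out 1 sample gave 3 to 18. A sample left alone in its cell of the design is there assumed to vary like the others. Those fits leave 1 sample in a group and omit genotype, so the range of 3 to 18 is not read as a result. They tested 12, 34, 13 and 35 members without control 1, control 2, mutant 1 and mutant 2. Each also called a smaller share of all genes lower than the main fit did. Of the 17 members of the main fit, 12 passed the filter through group 1 alone and had to be lower in group 2. Detection depended on the minimum. Control 2 detected 68 members at 3 counts and 29 at 10, and mutant 2 detected 32 at 3 counts, 55 at 1 count and 9 at 10. Low reads in mutant 2 and the wide errors of members limit what could be detected.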
